A study of Mus musculus with 288 samples.

Results

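The 10 genes described here are *Pck1*, *G6pc*, *Fbp1*, *Pcx*, *Tat*, *Gys1*, *Gys2*, *Pygl*, *Pygm* and *Ppp1r3c*. Their products act in glucose synthesis, in tyrosine breakdown (*Tat*) and in glycogen storage and release. All but the scaffold *Ppp1r3c* encode enzymes. The genes were chosen by name, and all 10 were found among the 35904 genes of the expression tables. RNA-seq was run on bulk liver, kidney, skeletal muscle, heart, lung and cerebellum of male wild-type C57BL/6J mice that were 8 weeks old. The mice had spent 7 days either in normoxia or in intermittent hypoxia (IH), in which oxygen cycled between 21% and 8%. Both groups were then kept in constant darkness at normal oxygen for 2 days, so every library was made from mice breathing room air, and tissue was taken every 3 h on the second of these days. Each tissue gave 24 libraries per condition, 3 at each of 8 time points, for 288 libraries in all. Values are TPM, the share of each transcript in its library after division by transcript length, so that levels can be set side by side between genes. A TPM table keeps no read depth, and the depth behind each value is unknown here. In bulk tissue, fewer cells of a type and less RNA per cell cannot be told apart.

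Gluconeogenesis rebuilds glucose from lactate, amino acids and glycerol, and it is known chiefly from liver and from the proximal tubule of the kidney. Pyruvate carboxylase (*Pcx*) makes oxaloacetate in mitochondria, phosphoenolpyruvate carboxykinase (*Pck1*) turns it into phosphoenolpyruvate, fructose-bisphosphatase (*Fbp1*) acts further along, and the catalytic subunit of glucose-6-phosphatase (*G6pc*) releases free glucose. Tyrosine aminotransferase (*Tat*) starts the breakdown of tyrosine and is a classic glucocorticoid-induced gene of hepatocytes. Glycogen synthase lengthens glycogen chains and glycogen phosphorylase shortens them. Each comes as a muscle-type (*Gys1*, *Pygm*) and a liver-type (*Gys2*, *Pygl*) gene. *Ppp1r3c*, also called PTG, is a scaffold that brings protein phosphatase 1 to glycogen.

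Regulatory sequence is shown for 3 genes that were called rhythmic over the day in some tissues, *Ppp1r3c* in more of them than *Pck1* and *G6pc*. With all libraries, *Pck1* and *G6pc* were called in normoxia or after IH, but in no tissue in both. The 250 bases before the RefSeq start site are printed 5′ to 3′ on the gene's own strand (build GRCm38.p6), and capitals mark a motif found by a letter search on both strands. TTACGTCA in *Pck1* and TTACGTAA in *G6pc* resemble the element bound by CREB-type factors, and CACGTG in *Ppp1r3c* is the E-box core that basic helix-loop-helix factors such as the clock proteins can bind. Of 32851 windows of the same length, 0.447% held TTACGTCA, 0.113% held TTACGTAA and 6.02% held CACGTG on either strand.
Pck1, chr2:173152823-173153072, plus strand: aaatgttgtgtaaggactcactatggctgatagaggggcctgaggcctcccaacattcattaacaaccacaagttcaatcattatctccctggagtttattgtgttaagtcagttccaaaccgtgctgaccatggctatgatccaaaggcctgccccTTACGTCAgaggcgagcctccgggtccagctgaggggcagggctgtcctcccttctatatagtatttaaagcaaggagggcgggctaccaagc
G6pc, chr11:101367466-101367715, plus strand: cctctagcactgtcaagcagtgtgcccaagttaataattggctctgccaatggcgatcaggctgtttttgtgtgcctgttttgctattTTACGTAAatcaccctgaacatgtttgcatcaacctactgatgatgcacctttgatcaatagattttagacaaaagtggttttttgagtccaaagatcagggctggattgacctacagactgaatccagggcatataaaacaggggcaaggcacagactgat
Ppp1r3c, chr19:36736605-36736854, minus strand: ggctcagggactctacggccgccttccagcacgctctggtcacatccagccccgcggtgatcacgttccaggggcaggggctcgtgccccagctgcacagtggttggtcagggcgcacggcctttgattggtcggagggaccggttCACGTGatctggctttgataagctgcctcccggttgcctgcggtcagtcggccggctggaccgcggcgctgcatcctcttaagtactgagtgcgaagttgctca
The motif began 93 bases before the start in *Pck1*, 162 bases before it in *G6pc* and 104 bases before it in *Ppp1r3c*. RefSeq windows were matched for 9 of the 10 genes, with 10 windows in all. TGACGTCA, present in 1.55% of all windows, was in none of the 10. Another CACGTG lay 248 bases before the start of *Pcx*. A match says only that these letters are present.

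In GRCm38 (GENCODE annotation), *Pck1* lies on the plus strand of chromosome 2 at 173153048-173159273, *G6pc* on the plus strand of chromosome 11 at 101367561-101377903, and *Fbp1* on the minus strand of chromosome 13 at 62864753-62888282. *Pcx* (4510472-4621752, plus), *Pygm* (6384399-6398459, plus) and *Ppp1r3c* (36731731-36736653, minus) share chromosome 19. *Tat* lies on chromosome 8 at 109990437-109999803 (plus), *Gys1* on chromosome 7 at 45434844-45456619 (plus), *Gys2* on chromosome 6 at 142422613-142473109 (minus) and *Pygl* on chromosome 12 at 70190811-70231488 (minus).

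Before the results, 4 libraries were set apart. The liver IH library of replicate 2 at 13:30 correlated at only 0.710 with the mean of the other liver libraries of both conditions. Its 6 hepatocyte markers summed to 1074 TPM, against a median of 38189 TPM in liver after IH, and its 6 heart markers summed to 5317 TPM, where no other liver library after IH exceeded 42.0 TPM. It had 73.1 TPM of *Pygm* and 2.27 TPM of *Gys2*, which goes against its label. The cerebellum IH library of replicate 3 at 1:30 (r = 0.789), the heart normoxia library of replicate 3 at 7:30 (r = 0.840) and the lung IH library of replicate 1 at 22:30, whose hepatocyte markers summed to 475 TPM where the next lung library after IH had 13.0 TPM, were also set apart. Where leaving out such a library moved a result, the value without it is given beside it. Markers of each tissue were otherwise high in libraries of that tissue, with summed medians in normoxia between 3569 TPM in cerebellum and 171439 TPM in lung. Some libraries that were not set apart also held markers of another tissue. Skeletal muscle markers summed to 3919 TPM in the cerebellum normoxia library of replicate 3 at 19:30 (next highest 117 TPM). That library also had the highest *Pygm* of its group, 122 TPM. Lung markers reached 2011 TPM in heart in normoxia, where their median was 1.06 TPM. Heart markers were also present in cerebellum, with a median of 660 TPM in normoxia and 391 TPM after IH.

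The gluconeogenic enzymes were kidney and liver genes in these mice. In normoxia *Fbp1* averaged 728 ± 114 TPM in kidney and 694 ± 114 TPM in liver (SD, n = 24, spread over mice and times of day), and it stayed between 0.251 and 0.541 TPM in the other 4 tissues. Its lowest liver library had 492 TPM and the highest library of any of those 4 tissues had 2.93 TPM, so the ranges were far apart. The kidney and liver ranges overlapped.

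*G6pc* followed the same order, with 211 ± 69.6 TPM in kidney and 86.1 ± 29.3 TPM in liver, and these ranges overlapped as well (123 to 346 TPM and 29.6 to 132 TPM). In lung *G6pc* was listed at 0 in 22 of 24 normoxia libraries. *Pck1* was broader, at 704 ± 232 TPM in kidney, 477 ± 345 TPM in liver and 173 ± 119 TPM in muscle, falling to 21.5 ± 27.9 TPM in heart, and the range of every tissue overlapped that of the next in this order. *Pcx* was broader still. It averaged 151 ± 38.2 TPM in kidney, 118 ± 30.1 TPM in liver and 111 ± 45.5 TPM in muscle, and its lowest tissue, heart, still had 12.1 ± 8.88 TPM. The 6 adipocyte markers named below summed to a median of 3682 TPM in muscle and 193 TPM in heart in normoxia. The part of adipocytes in the *Pck1* and *Pcx* levels of these tissues was not tested.

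*Tat* was the most liver-restricted of the 10 genes by mean level. It averaged 547 ± 275 TPM in liver, with libraries from 232 to 1497 TPM, and its next tissue, lung, averaged 0.922 ± 0.543 TPM. Kidney, whose *Fbp1* levels overlapped those of liver, had only 0.286 ± 0.170 TPM of *Tat*.

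The muscle-type and liver-type forms of the glycogen enzymes divided the tissues between them. In normoxia *Gys2* made up 98.7% ± 0.365 of the 2 glycogen synthase transcripts in liver and 43.0% ± 3.39 in kidney (SD, n = 24). Its mean share was between 1.08% and 4.44% in the other 4 tissues. *Pygl* made up 99.6% ± 0.177 of the 2 phosphorylase transcripts in liver, 85.5% ± 2.73 in kidney and 65.2% ± 5.04 in lung, but 1.39% ± 0.570 in muscle.

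Muscle had the highest level of *Pygm*, 2214 ± 441 TPM, which was also the highest mean of any of the 10 genes in any tissue. Heart followed with 185 ± 38.1 TPM and did not overlap with muscle. *Gys1* was also highest in muscle, at 103 ± 20.8 TPM, with no overlap with heart at 15.6 ± 3.67 TPM. Kidney had both synthases at similar levels, 12.3 ± 2.56 TPM of *Gys1* and 9.20 ± 1.87 TPM of *Gys2*. *Ppp1r3c* was highest in muscle (108 ± 59.5 TPM), lay between 23.3 and 27.0 TPM in liver, heart and cerebellum with overlapping ranges, and was lowest in kidney (1.46 ± 0.554 TPM).

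**Figure D1:**
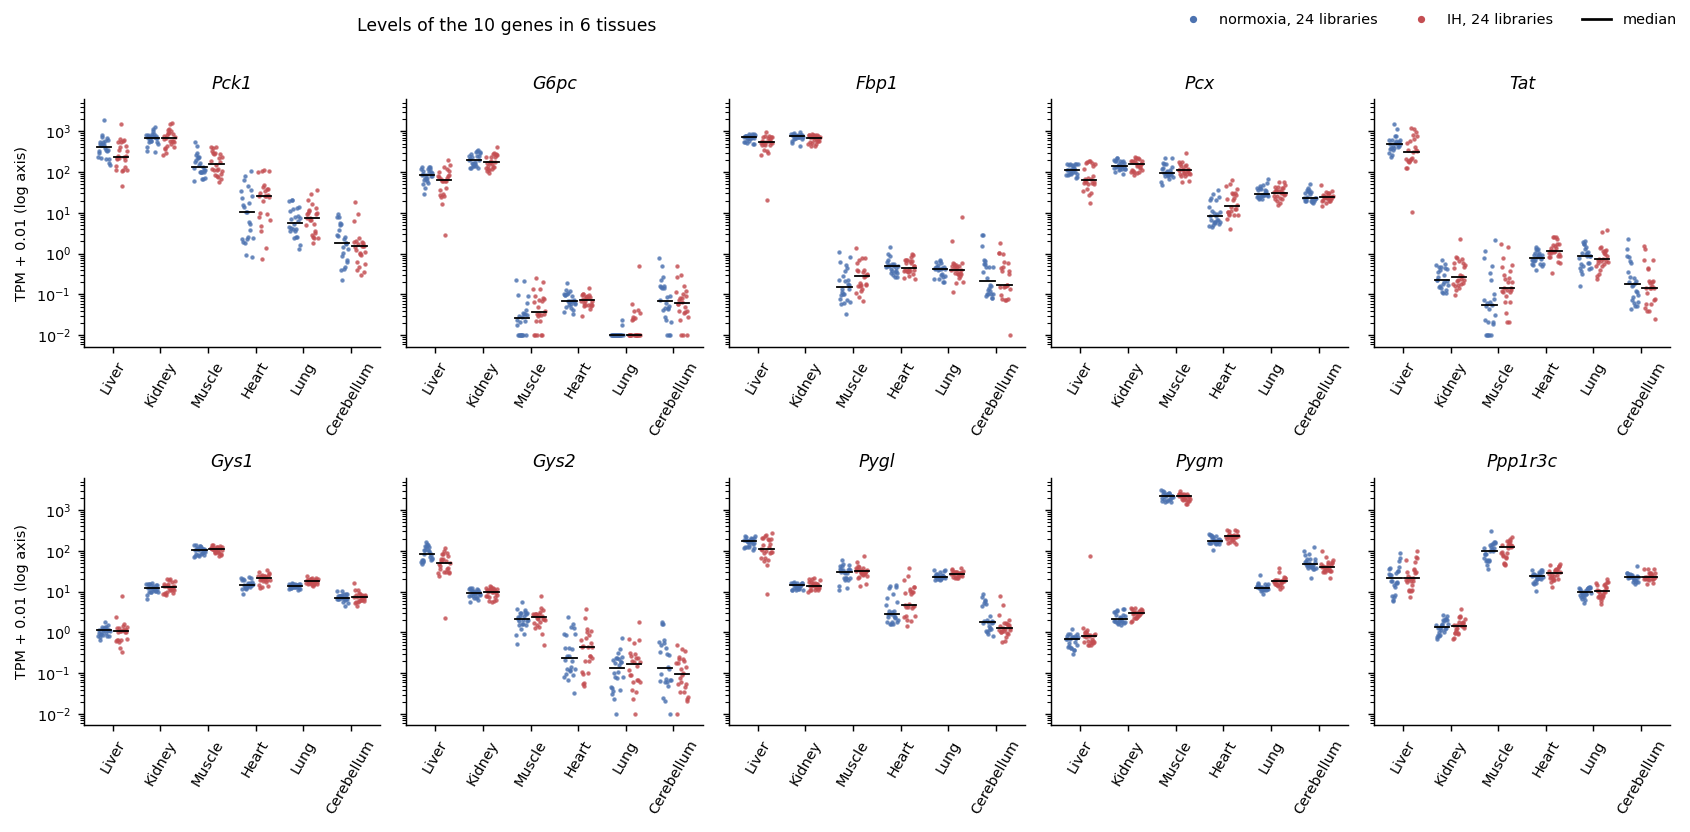
TPM (log axis, 0.01 added so that zeros can be drawn) of each of the 10 genes in each tissue, with 1 point per library, 24 in normoxia and 24 after IH, and a bar at the median. *Fbp1*, *G6pc* and *Tat* drop from a normoxia mean of 86.1 TPM or more in liver to under 1 TPM in heart, lung, muscle and cerebellum, while *Pygm* and *Gys1* peak in muscle and the IH and normoxia points overlap in every panel.

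The next comparison asked whether mean expression over the 24 h differed after IH. The log2 values of the 24 libraries per condition were compared with limma in each tissue, and a gene was called when its Benjamini-Hochberg (BH) adjusted p was at most 0.05 and its change at least 1.5-fold. Genes averaging under 1 TPM in a tissue were not tested, which left 45 of the 60 gene and tissue pairs. Of these 45 pairs 2 were called, where 4.26% of all tested genes, summed over tissues, were called. *Gys2* was lower in liver and *Pcx* was higher in heart. No other pair was called.

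In liver, *Gys2* was lower after IH. Its libraries ran from 48.8 to 166 TPM in normoxia (median 84.9 TPM) and from 2.27 to 118 TPM after IH (median 50.0 TPM), so the groups overlapped although the IH mean was lower at all 8 time points. The fitted change was 1.78-fold lower, a log2 change of -0.83 (SE 0.206, limma adjusted p = 0.00261). *Gys2* was the 1 gene called of 10 tested in liver, where 3.66% of all genes were called.

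*Pcx*, *Pygl*, *Fbp1*, *Tat*, *Pck1* and *G6pc* also had lower means in liver after IH but were not called. *Pcx* went from 118 ± 30.1 to 88.2 ± 56.5 TPM, a log2 change of -0.54 (limma adjusted p = 0.00961), and *Pygl* from 168 ± 37.2 to 130 ± 70.9 TPM, a log2 change of -0.48 (limma adjusted p = 0.0335). Both were lower at all 8 time points in the TPM as deposited, as was *Fbp1*. *Pcx* and *Pygl* passed the adjusted p and fell short of 1.5-fold. With *Gys2* this made 3 of 10 genes past the adjusted p alone, against 24.2% of all genes. Changes of *Fbp1* (-0.43, limma adjusted p = 0.0692), *Tat* (-0.61, limma adjusted p = 0.0890), *Pck1* (-0.50, limma adjusted p = 0.132) and *G6pc* (-0.43, limma adjusted p = 0.188) did not pass. *Ppp1r3c*, *Pygm* and *Gys1* had log2 changes of 0.33, 0.47 and 0.10 in liver, none past the threshold. Without the liver library that holds heart transcripts, *Pygm* was at 0.19 (limma adjusted p = 0.0402), *Gys1* at -0.04 and *Fbp1* at -0.27 (limma adjusted p = 0.0169). Liver *Pygm* averaged 0.651 TPM in normoxia and 3.78 TPM after IH, where that library held 73.1 TPM and the median was 0.790 TPM. The filter of 1 TPM counted that library, and *Pygm* was tested only through it. The median of the 10 liver changes was -0.46 and that of all genes -0.01.

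The liver result depended on the replicates. Replicate 3 stood apart after IH for *Pcx*, with 162 ± 21.8 TPM against 46.5 ± 13.52 TPM in replicate 1 and 56.2 ± 20.8 TPM in replicate 2 (SD, n = 8 time points each), and in normoxia it was also the highest of the 3 at 155 ± 6.59 TPM. Within replicate 3 alone, the log2 change of *Gys2* was -0.22 and that of *Pcx* 0.15. Within replicates 1 and 2 alone, that of *Gys2* was -0.94 and -1.34, and that of *Pcx* -0.96 and -0.81. Without replicate 3, 7 of the 10 genes were called lower in liver, namely *Fbp1*, *G6pc*, *Gys2*, *Pck1*, *Pcx*, *Pygl* and *Tat*, with *Gys2* at -1.14 (limma adjusted p = 0.00059), where 8.13% of all liver genes were called lower in the same fit. *Gys2* was not called without replicate 1 (-0.78, limma adjusted p = 0.154) or without replicate 2 (-0.58, limma adjusted p = 0.0962). The library of replicate 2 at 13:30 was still in the fits of replicate 2 alone, without replicate 1 and without replicate 3. Its part in those values was not tested. Without the liver library that holds heart transcripts, *Gys2* was at -0.69 (limma adjusted p = 0.000829) and no other gene was called.

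Markers moved with the same libraries. The hepatocyte marker sum ran from 47179 to 86734 TPM in normoxia livers (median 56752 TPM) and from 1074 to 63605 TPM after IH, with a median of 33647 TPM in replicate 1, 37047 TPM in replicate 2 and 59651 TPM in replicate 3. The 1074 TPM belonged to the library that holds heart transcripts, and the next lowest liver after IH had 19338 TPM. Of the 6 hepatocyte markers, *Alb*, *Apob* and *Fgb* were called lower after IH, with log2 changes of -0.74, -1.44 and -0.59. That library was kept in these 3 changes. Kidney markers summed to between 37.7 and 408 TPM in livers after IH (median 82.7 TPM), against a median of 3.59 TPM in normoxia, where replicate 3 had a median of 101 TPM and no library of replicates 1 and 2 exceeded 7.93 TPM. Kidney libraries themselves had a median of 50131 TPM. The part of these markers in the liver changes was not tested.

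In heart, *Pcx* was higher after IH. Its libraries ran from 4.51 to 36.5 TPM in normoxia (median 8.24 TPM) and from 4.05 to 62.6 TPM after IH (median 14.5 TPM), with wide overlap, and the IH mean was higher at 7 of 8 time points. The change was 1.56-fold, a log2 change of 0.64 (SE 0.229, limma adjusted p = 0.0203). It was the 1 gene called of 7 tested, against 2.95% of all genes.

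*Gys1* and *Tat* were also higher in heart past the adjusted p alone, by 0.32 (limma adjusted p = 0.00148) and 0.30 (limma adjusted p = 0.0235) on the log2 scale. *Gys1* went from 15.6 ± 3.67 to 21.5 ± 5.41 TPM and was higher at all 8 time points in the TPM as deposited. Heart *Pygm* and *Ppp1r3c* were also higher at all 8, without passing (limma adjusted p = 0.159 and 0.332). *Tat* went from 0.832 ± 0.279 to 1.31 ± 0.637 TPM, a level near the floor. It passed the filter of 1 TPM only through the IH libraries. *Pcx*, *Gys1* and *Tat* were 3 of 7 genes, against 45.2% of all heart genes. *Pck1* had the largest fitted value, 0.93, with an interval from -0.07 to 1.92 that included 0 (limma adjusted p = 0.122), and *Pygl* was at 0.59 (limma adjusted p = 0.0700). *Pcx* was not called without replicate 1 (0.43, limma adjusted p = 0.304) or without replicate 2 (0.68, limma adjusted p = 0.0507). Heart libraries had 25124 ± 1719 genes above 0 TPM in normoxia and 21447 ± 688 after IH (SD, n = 24). When the count of detected genes entered the model, *Pcx* was at 0.91 and not called (limma adjusted p = 0.217), and 257 of 12779 heart genes passed the adjusted p instead of 5780. *Pygl* was called without replicate 3 (0.74, limma adjusted p = 0.0243) and without the heart library that stood apart (0.64, limma adjusted p = 0.0477).

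*Pck1*, *Pcx* and *Pygl* followed adipocyte transcripts in heart. The sum of 6 adipocyte markers, *Adipoq*, *Plin1*, *Cidec*, *Retn*, *Lep* and *Cfd*, ran from 22.1 to 1397 TPM in normoxia hearts (median 193 TPM) and from 22.2 to 1207 TPM after IH (median 370 TPM), and none of the 6 was called. Over the 24 normoxia hearts the log2 level of *Pck1* correlated with that of the sum at Pearson's r = 0.974 and Spearman's rho = 0.975, and over the 24 IH hearts at 0.948 and 0.925. *Pcx* gave r of 0.903 (rho 0.901) in normoxia and 0.909 (rho 0.931) after IH, and *Pygl* 0.908 (rho 0.934) and 0.904 (rho 0.952). Each of these had a two-sided permutation p of 1e-05, the smallest that 100000 permutations can give, and BH adjusted values of 2e-05 for r and 2.57e-05 for rho over 18 relations. Without the 2 hearts farthest from the median sum, r stayed between 0.897 and 0.977. With the marker sum as a term in the model, the *Pcx* change was 0.16 (limma adjusted p = 0.232), *Pck1* was at -0.18 and *Pygl* at 0.03, while *Gys1* stayed at 0.32 (limma adjusted p = 0.00266).

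**Figure D2:**
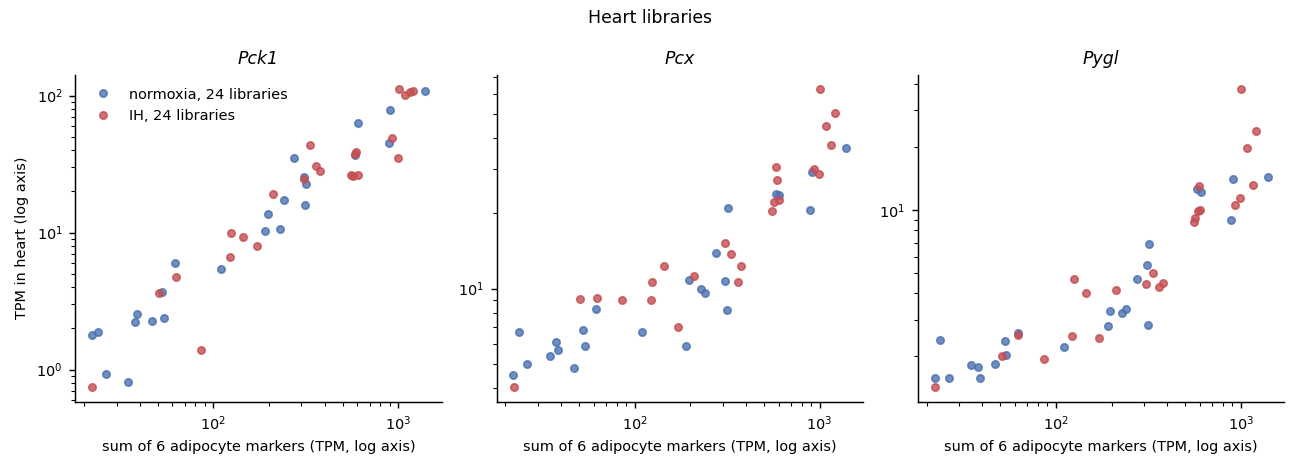
TPM of *Pck1*, *Pcx* and *Pygl* (vertical, log axis) against the summed TPM of 6 adipocyte markers (horizontal, log axis) in 48 heart libraries, 24 in normoxia and 24 after IH, with 1 point per library. The points of both groups rise along the same band, with Pearson's r between 0.903 and 0.974 on the log2 scale.

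The same relations were computed in muscle and lung. In muscle *Pcx* gave r of 0.822 (permutation p = 1e-05, rho 0.677) in normoxia and 0.913 (permutation p = 1e-05, rho 0.912) after IH, and r for the other pairs in these 2 tissues lay between 0.207 and 0.804. For lung after IH, *Pcx* (r = 0.339, rho = 0.315) and *Pygl* (r = 0.207, rho = 0.172) had permutation p values of 0.105 and 0.332 for r, and for rho of 0.135 and 0.420.

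In the other 4 tissues none of the 10 genes was called. Kidney had 0 of 9 tested, against 0.783% of all genes called by limma, and 1 of the 9 had an unadjusted p of at most 0.05. Only *Pygm* passed the adjusted p (19.8% of all genes did), and its level was low, going from 2.38 ± 0.723 to 2.93 ± 0.622 TPM, a log2 change of 0.31 (limma adjusted p = 0.00115) that was higher at all 8 time points. Without replicate 3 it was 0.18 (limma adjusted p = 0.0758). Kidney *Fbp1* (-0.10, 95% interval -0.23 to 0.04), *Pcx* (0.03, -0.16 to 0.21), *Pck1* (0.02, -0.28 to 0.31) and *G6pc* (-0.12, -0.39 to 0.15) had intervals that included 0.

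Lung had the largest share of called genes, 13.51%, and 0 of 6 members among them by limma, with 3 at an unadjusted p of at most 0.05. Only *Pcx* passed the adjusted p, at -0.35 (limma adjusted p = 0.0109), where 70.4% of all lung genes did. Lung *Pcx* was at -0.86 and -0.62 within replicates 1 and 2, and at 0.44 within replicate 3, so its direction was not shared by the replicates. It was not past the adjusted p without replicate 1 (-0.09) or without replicate 2 (-0.21), and was called without replicate 3 (-0.74, limma adjusted p = 5.44e-06). The 6 lung markers summed to between 136754 and 265125 TPM in normoxia and between 34982 and 206123 TPM after IH, and their part in this value was not tested. The TPM as deposited gave -0.05 for it. That scaling moved the median of all genes to 0.21 in lung, 0.15 in heart and -0.12 in liver, from -0.08, 0.04 and -0.01 after the scaling used here.

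In cerebellum 0 of 6 genes were called (2.64% of all genes were) and 0 passed the adjusted p (15.0%), while 1 had an unadjusted p of at most 0.05. This was *Pygl*, at -0.52 (limma adjusted p = 0.147), going from 2.87 ± 2.31 to 1.69 ± 1.54 TPM. *Pygl* was called without the library that stood apart (-0.65, limma adjusted p = 0.0237) and without replicate 3 (-0.89, limma adjusted p = 0.0108). In muscle 0 of 7 genes were called (0.374%) and 0 passed the adjusted p (10.4%), with 1 at an unadjusted p of at most 0.05, *Pygm* at -0.17 (limma adjusted p = 0.0957). Muscle *Gys1* had a change of -0.03 with an interval from -0.14 to 0.09, and *Pck1* 0.08 with an interval from -0.39 to 0.54.

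**Figure D3:**
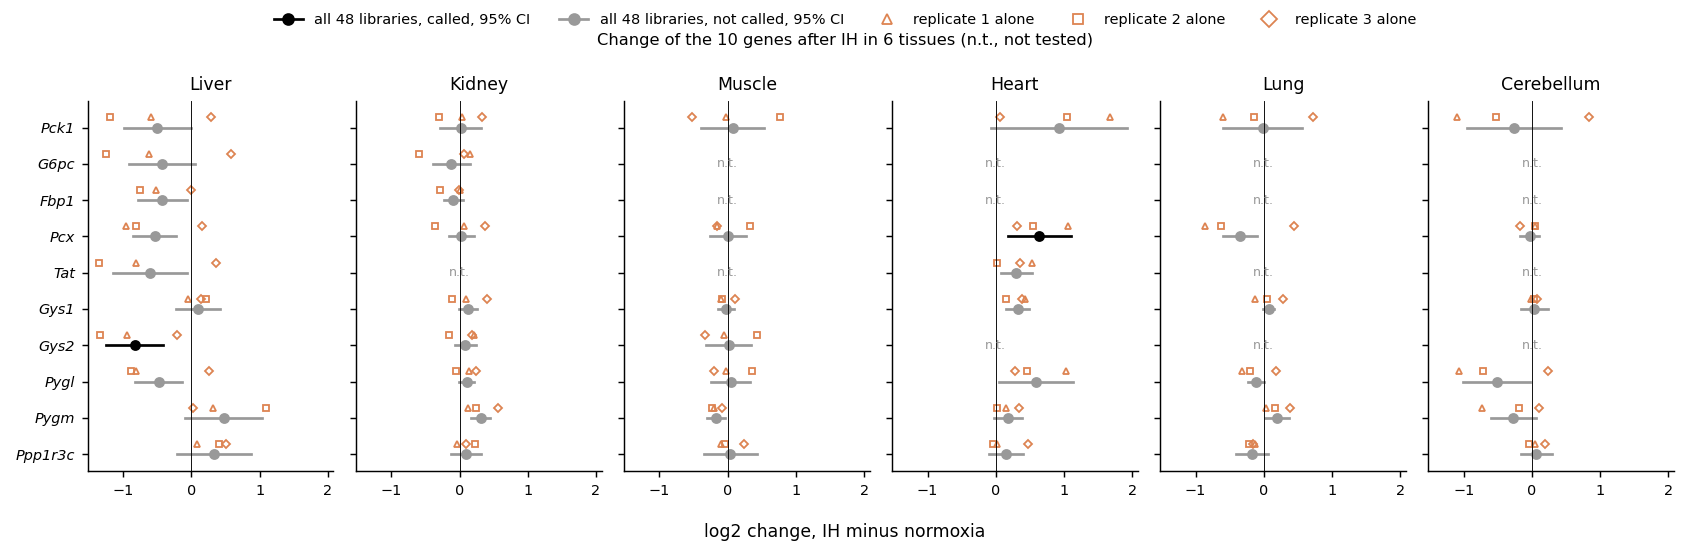
Log2 change after IH (horizontal, IH minus normoxia) of each gene in each tissue, with the 95% interval from limma over 48 libraries, black where called and grey where not, and open symbols for each replicate number alone. *Gys2* in liver (-0.83) and *Pcx* in heart (0.64) are the called pairs, and in liver the replicate 3 symbols lie to the right of those of replicates 1 and 2 for *Gys2*, *Pcx*, *Tat*, *G6pc* and *Pck1*.

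Whether the change differed between tissues was tested directly for liver with kidney and for heart with muscle. Liver minus kidney, 3 of 9 genes differed, against 30.3% of all genes. *Gys2* differed by -0.92 on the log2 scale (SE 0.223, limma adjusted p = 0.000841), being at -0.83 in liver and 0.08 in kidney. *Pygl* differed by -0.59 (limma adjusted p = 0.00857) and *Pcx* by -0.57 (limma adjusted p = 0.0129). *Pck1* (-0.51, limma adjusted p = 0.174), *G6pc* (-0.31, limma adjusted p = 0.423) and *Fbp1* (-0.33, limma adjusted p = 0.182) were lower in liver than in kidney by amounts that did not pass. Heart minus muscle, 2 of 6 differed, against 35.4% of all genes, namely *Gys1* by 0.35 (limma adjusted p = 0.00461) and *Pygm* by 0.34 (limma adjusted p = 0.0215). *Pcx* in heart minus muscle was at 0.63 (limma adjusted p = 0.0535). It passed without the libraries set apart (0.67, limma adjusted p = 0.0398) and without replicate 2 (0.84, limma adjusted p = 0.0399). Without replicate 1, none of the 5 called differences passed, with *Gys2* at -0.80 (limma adjusted p = 0.0718). Without replicate 2, liver minus kidney *Pygl* (-0.46, limma adjusted p = 0.0591) and heart minus muscle *Pygm* (0.39, limma adjusted p = 0.0577) did not pass. Liver minus kidney *Pck1* passed without replicate 3 (-0.75, limma adjusted p = 0.0397).

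The time course allowed a test for 24-h rhythms, made as a cosine fit per tissue and condition with limma on all 24 libraries and called at a BH adjusted p of 0.05. Peak times are the labelled times of the cosine peak in hours. For orientation, the clock output gene *Dbp* peaked between 8.09 and 10.6 h in normoxia in the 5 tissues where it was rhythmic, and was not called in cerebellum (limma adjusted p = 0.0974). *Ppp1r3c* was rhythmic in more tissues than any other of the 10 genes. In normoxia 9 of 56 tested gene and tissue pairs were rhythmic, against 6.97% of all tested genes summed over tissues. After IH 7 were, against 3.43%.

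Liver had 4 rhythmic genes of 10 in normoxia, against 14.4% of all genes. *Gys2* had the smallest error. It averaged 54.1 ± 5.11 TPM at 1:30, with replicates at 54.6, 58.9 and 48.8 TPM, and 138 ± 9.03 TPM at 13:30, with replicates at 128, 146 and 138 TPM, so the 2 times did not overlap. The fitted peak was 2.56-fold above the trough at 12.9 h (SE 0.261 h, limma adjusted p = 2.3e-09), and it was called under all 13 alternatives.

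*Ppp1r3c* swung the most. It averaged 9.12 ± 4.5 TPM at 10:30, with replicates at 5.80, 7.31 and 14.2 TPM, and 70.2 ± 16.1 TPM at 22:30, with replicates at 55.7, 67.3 and 87.4 TPM. The fitted ratio was 6.18-fold with a peak at 22.46 h (SE 0.392 h, limma adjusted p = 5.59e-07), nearly opposite in time to *Gys2*.

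*Pck1* peaked at 10.4 h, 2.93-fold above its trough (limma adjusted p = 0.00622). Its 3 replicates at 10:30 were at 476, 550 and 1849 TPM, so the mean of that time rests on 1 library, while those at 22:30 were at 212, 168 and 145 TPM. *G6pc* peaked at 20.9 h with a ratio of 2.09-fold (limma adjusted p = 0.0257), having 29.6, 62.1 and 39.9 TPM at 7:30 and 120, 129 and 101.9 TPM at 16:30. Both lost their call under some alternatives, *Pck1* under 4 of 13 and *G6pc* under 6 of 13.

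After IH, 1 of 10 liver genes was rhythmic, against 2.33% of all genes. *Ppp1r3c* kept a 4.17-fold ratio and a peak at 21.4 h (limma adjusted p = 0.00029), with 12.2 ± 5.77 TPM at 10:30 and 79.4 ± 17.5 TPM at 22:30, and lost its call without replicate 2 (limma adjusted p = 0.0558). *Gys2* had a fitted ratio of 1.75-fold (limma adjusted p = 0.866), *Pck1* of 2.60-fold (limma adjusted p = 0.319) and *G6pc* of 3.12-fold (limma adjusted p = 0.218), with peaks at 10.47, 10.1 and 21.5 h. This count rested on 1 library. Without the liver library of replicate 2 at 13:30 that holds heart transcripts, 4 of 10 liver genes were rhythmic after IH, the same 4 as in normoxia, with limma adjusted p of 0.000456 for *Gys2*, 0.0407 for *Pck1* and 0.0418 for *G6pc*, and 812 of 14482 genes were called instead of 337.

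**Figure D4:**
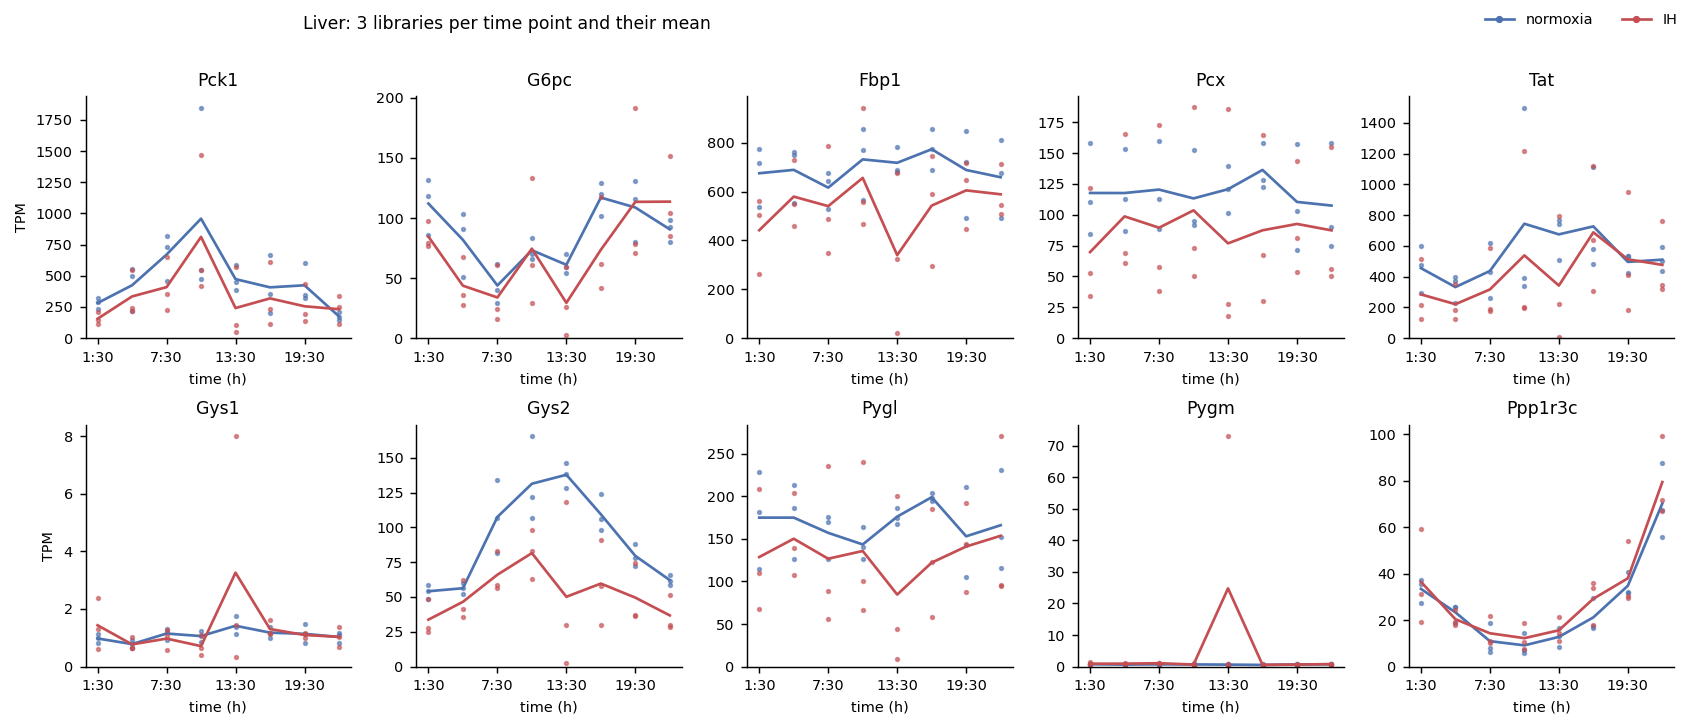
TPM in liver against labelled time in hours for all 10 genes, each panel on its own scale from 0, with 1 point per library (3 per time and condition) and lines through the means, normoxia in blue and IH in red. *Gys2* climbs to 138 TPM at 13:30 in normoxia, and its low IH point of 2.27 TPM at that time is the library that holds heart transcripts, while *Ppp1r3c* climbs to 70.2 TPM in normoxia and 79.4 TPM after IH at 22:30.

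Kidney had 1 rhythmic gene of 10 in normoxia (18.6% of all genes) and 3 of 10 after IH (5.38%). *Ppp1r3c* was rhythmic in both, at 1.52-fold with a peak at 17.4 h (limma adjusted p = 0.0354) and at 1.78-fold with a peak at 15.8 h (limma adjusted p = 0.0118), on a level of only 1.46 ± 0.554 TPM in normoxia. After IH, *G6pc* went from 122 ± 18.1 TPM at 4:30 to 314 ± 79.1 TPM at 22:30 (fitted 1.88-fold, peak 20.1 h, limma adjusted p = 0.0327). *Pck1* went from 480 ± 168 TPM at 4:30 to 1056 ± 116 TPM at 10:30 (2.10-fold, peak 14.2 h, limma adjusted p = 0.0476). In normoxia the same genes had fitted ratios of 1.61-fold for *G6pc* (limma adjusted p = 0.0876) and 1.58-fold for *Pck1* (limma adjusted p = 0.0657) and peaks at 21.1 and 13.0 h. The kidney calls after IH were lost under 7 of 13 alternatives for *G6pc* and for *Pck1*. Those of *Ppp1r3c* were lost under 7 of 13 in normoxia, among them without replicate 1 (limma adjusted p = 0.361) and without replicate 3 (0.0849), and under 6 of 13 after IH, among them without each replicate in turn (limma adjusted p between 0.0565 and 0.195).

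In muscle 2 of 9 genes were rhythmic in normoxia (5.39%) and 1 of 9 after IH (7.43%). *Ppp1r3c* was rhythmic in both, at 3.14-fold with a peak at 19.4 h (limma adjusted p = 0.000105) and 3.01-fold with a peak at 18.8 h (limma adjusted p = 0.000195). Its 3 libraries at 7:30 were at 58.1, 44.1 and 35.2 TPM in normoxia and at 48.6, 45.6 and 47.7 TPM after IH, and at 16:30, the time of the highest mean in both, they were at 312, 111 and 147 TPM and at 179, 154 and 175 TPM. These 2 times did not overlap in either condition. The call after IH was lost without replicate 1 (limma adjusted p = 0.0544). *Pck1* peaked at 6.9 h in normoxia, on the opposite side of the day from *Ppp1r3c*, with a 3.67-fold ratio (limma adjusted p = 0.000282), from 88.8 ± 19.9 TPM at 16:30 to 335 ± 188 TPM at 4:30. After IH its ratio was 2.20-fold with a peak at 4.79 h (limma adjusted p = 0.194). Muscle *Pck1* also followed the adipocyte marker sum, with r = 0.626 in normoxia and 0.495 after IH (rho 0.546 and 0.606). Permutation p values were 0.00085 and 0.0123 for r (BH adjusted 0.00109 and 0.0139) and 0.00595 and 0.00201 for rho (BH adjusted 0.00714 and 0.00258), and without the 2 farthest libraries r was 0.444 and 0.481.

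In lung 2 of 9 genes were rhythmic in normoxia (6.80%) and 1 of 9 after IH (3.38%). *Ppp1r3c* was called under all 13 alternatives in both conditions, at 1.73-fold with a peak at 20.8 h (limma adjusted p = 6.37e-05) and 2.26-fold with a peak at 21.7 h (limma adjusted p = 8.33e-05). It went from 6.39 ± 1.02 TPM at 10:30 to 12.2 ± 0.369 TPM at 19:30 in normoxia, and from 5.90 ± 0.946 TPM at 10:30 to 18.2 ± 1.47 TPM at 22:30 after IH. Lung *Tat* peaked at 12.4 h in normoxia (2.27-fold, limma adjusted p = 0.00348), from 0.408 ± 0.128 to 1.61 ± 0.266 TPM, a level near the floor of the filter. After IH its ratio was 1.5-fold (limma adjusted p = 0.670). Its normoxia call was lost without replicate 1 (limma adjusted p = 0.0799) and with time as a factor.

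In heart 0 of 9 genes were rhythmic in normoxia by limma (0.558% of all genes), with 3 at an unadjusted p of at most 0.05, and 1 of 9 after IH (3.45%). That gene was again *Ppp1r3c*, at 1.75-fold with a peak at 20.3 h (limma adjusted p = 0.00625), from 19.2 ± 6.09 TPM at 7:30 to 39.7 ± 8.19 TPM at 22:30. The call was lost under 5 of 13 alternatives, among them without replicate 1 (limma adjusted p = 0.116) and without replicate 3 (0.300). In normoxia its fitted ratio was 1.60-fold with a peak at 19.8 h (limma adjusted p = 0.697). In cerebellum 0 of 9 genes were rhythmic by limma or by the rank test in either condition, where 0% of all genes were called by limma in normoxia and 0.00936% after IH, with 6 of 9 and 0 of 9 at an unadjusted p of at most 0.05.

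**Figure D5:**
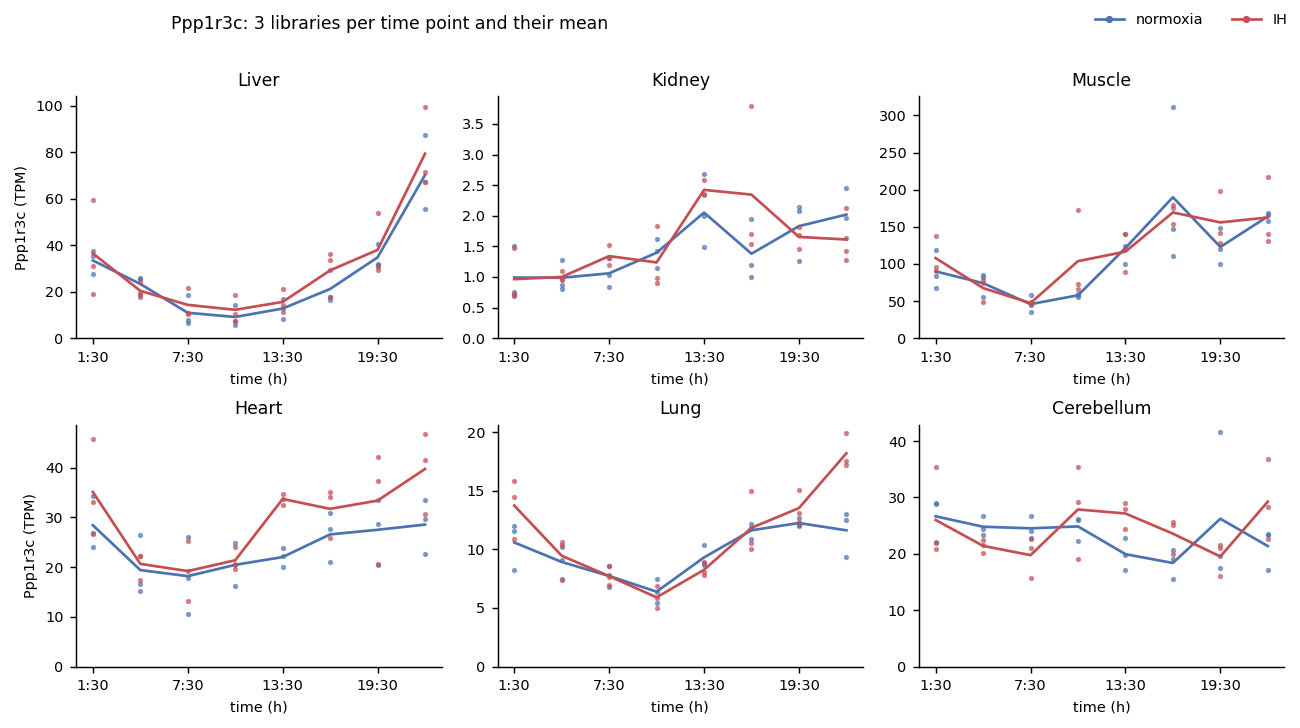
TPM of *Ppp1r3c* against labelled time in hours in the 6 tissues, with 1 point per library and lines through the means of 3 libraries, normoxia in blue and IH in red. The lines of both conditions go from a low between 7:30 and 10:30 to a high between 16:30 and 22:30 in liver, muscle, lung and heart, and the vertical scale differs between tissues, from 1.46 TPM on average in kidney to 108 TPM in muscle.

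A call in 1 condition and not in the other is not a test of the difference. That test, of the cosine terms between conditions, called 0 of 56 pairs and 0% of all genes in each of the 6 tissues by limma, with a lowest adjusted p of 0.704 among the 10 genes. At an unadjusted p of at most 0.05 there were 3 pairs, *Pcx* in cerebellum (0.0110), *Fbp1* in heart (0.0279) and *Ppp1r3c* in lung (0.0456). No rhythm of these genes was therefore shown to differ between conditions.

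The genes around the 10 members in the same pathways were read from lists. Of 11 further glycogen enzymes, 1 was called lower in liver, the lysosomal glucosidase *Gaa*, which went from 25.1 ± 5.28 to 15.6 ± 8.83 TPM, a log2 change of -0.72 (limma adjusted p = 8.51e-05). *Gaa* lost its call without replicate 1 and without replicate 2. At the adjusted p alone, 4 of 10 tested were lower in liver, 7 of 11 were higher in heart, and 9 of 11 were lower and 1 higher in lung, against the 24.2%, 45.2% and 70.4% of all genes given above. The medians of the list in those tissues were -0.16, 0.24 and -0.35.

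Of 13 glycogen regulators, 2 subunits of phosphorylase kinase, which activates glycogen phosphorylase, were called higher in lung, 2 of 11 tested where 13.51% of all genes were called. *Phkg1* went from 2.78 ± 0.642 to 7.89 ± 3.38 TPM, a log2 change of 1.02 (limma adjusted p = 1.31e-11). *Phka2* went from 6.05 ± 1.11 to 12.4 ± 3.02 TPM, a log2 change of 0.67 (limma adjusted p = 3.81e-12). Lung libraries had 22694 ± 737 genes above 0 TPM in normoxia and 25455 ± 1529 after IH, and when the count of detected genes entered the model *Phkg1* was at 0.27 (limma adjusted p = 0.0119) and *Phka2* at 0.43 (limma adjusted p = 0.000179), both under 1.5-fold. Within replicate 3 alone *Phkg1* was at 0.52. In lung 2 of 6 heart markers and 1 of 5 skeletal muscle markers were also called higher after IH. The heart markers summed to between 197 and 823 TPM in normoxia and between 300.2 and 932 TPM after IH, and the skeletal muscle markers to between 10.2 and 375 TPM and between 9.73 and 658 TPM. Their part in these values was not tested. No other regulator was called in any tissue. Of 15 further genes of gluconeogenesis, only *Mdh1*, cytosolic malate dehydrogenase, was called, in lung, from 95.7 ± 7.90 to 81.7 ± 25.4 TPM, a log2 change of -0.61 (limma adjusted p = 6.51e-06), and this turned to 0.15 (limma adjusted p = 0.261) when the count of detected genes entered the model. At the adjusted p alone 8 of 11 tested were lower in lung, where 70.4% of all genes passed and 6400 of 15426 were lower. No gene of 16 hormone and transcription regulators or of 5 further enzymes of tyrosine catabolism was called in any tissue. At the adjusted p alone, 1 of 5 of the latter was lower in liver, where 24.2% of all genes passed and 1508 of 11334 were lower.

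Several of these neighbours were rhythmic in liver in normoxia. *Ppp1r3b*, another glycogen-targeting subunit of the phosphatase, had a 5.21-fold ratio and a peak at 18.2 h (limma adjusted p = 2.45e-05), earlier than *Ppp1r3c*, and after IH a 4.94-fold ratio and a peak at 18.7 h (limma adjusted p = 0.0354). *Slc37a4*, the glucose-6-phosphate transporter that works with *G6pc*, peaked at 13.6 h (2.40-fold, limma adjusted p = 2.76e-07). In all, 3 of 12 glycogen regulators, 4 of 14 gluconeogenesis genes, 3 of 11 glycogen enzymes and 5 of 16 hormone and transcription regulators were rhythmic in normoxia liver, beside the 14.4% of all genes.

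For each member, the 3 genes whose 16 means (8 times in 2 conditions) followed it most closely were found in the tissue of its highest level. Liver *Gys2* was followed by *Serpina6* (r = 0.952) and *Slc9a3r1* (0.948). Muscle *Ppp1r3c* was followed by *Nfil3* (0.927) and *Cry1* (0.921), both clock-related repressors, and *Tbc1d1* (0.906). Kidney *Pck1* was followed by *Gk* (0.896), which encodes glycerol kinase, *Prnp* (0.893) and *Ncoa4* (0.889), kidney *G6pc* by *Spns2* (0.851) and *Slc16a6* (0.848), kidney *Fbp1* by *Hgd* (0.952), *Selenbp1* (0.951) and *Coasy* (0.938), and kidney *Pcx* by *Galns* (0.937), *Slc23a1* (0.925) and *Enpep* (0.916). Liver *Pygl* was followed by *Slc6a13* (0.967), *Pm20d1* (0.964) and *Shmt2* (0.958), and liver *Tat* by *Slc25a39* (0.912), *Fmo5* (0.911) and *Asl* (0.909). Muscle *Pygm* was followed by *Mfn2*, *Cacng6* and *Ryr1* (0.960 each), and muscle *Gys1* by *Tmem201* (0.939), *Mybbp1a* (0.938) and *Iars* (0.932). These values are among the highest of 11333 to 12901 genes compared over 16 points that share libraries and scaling, and are given as a description.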

How the data were processed

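The deposited tables hold TPM per gene, 1 column per library, which the authors made with kallisto. The submitters' processing notes name kallisto, bcl2fastq, FastQC 0.11.3, DESeq2 and the build mm10, and give no read counts per library. Column sums were between 989211 and 999188 TPM. A TPM value is a share of its library, so it moves when other transcripts of that library move, and replicates cannot be weighted by depth. All 288 columns were matched to samples by name, 0 columns of values were left unused, and 0 pairs of libraries were identical. The 3 replicates of a time point are separate mice. Whether the tissues of 1 replicate number come from 1 mouse is not in the labels, and p-values measure the spread between these libraries.

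Libraries were scaled within a tissue by the median of ratios and analysed as log2(scaled TPM + 0.5) with limma 3.58.1 in R 4.3.3 (empirical Bayes with a trend), and fold changes are on that scale, which understates the change of low genes. TPM values printed as levels are those deposited, and time points counted as higher or lower after IH were compared on them, without the scaling. The IH fit used genes of at least 1 TPM on average, and the rhythm fit genes that reached 1 TPM, with a 24-h cosine. P-values were adjusted (BH) over all genes tested in a tissue, with a threshold of 0.05 and, for IH, 1.5-fold. The authors tested estimated counts with DESeq2 and rhythms with MetaCycle and CircaCompare. Counts were not analysed here, so limma was used on TPM. Python 3.11.15, pandas 2.3.3 and scipy 1.17.1 served for the rest, and scripts were tested on simulated data.

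Named were all 10 members, per tissue up to 5 called genes of the other pathway lists by absolute log2 change, and the 3 genes most like each member. Some results under this rule are not reported here. Rhythmic neighbours named in liver were chosen after their values were seen. The members and lists were chosen with earlier results of these data known. Alternatives were other scalings, pseudocounts (0.1 and 1), filters, model terms, a replicate block and leaving out replicates or libraries. Dropping 4 libraries together and the adipocyte marker term were added after seeing the data.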

Additional observations from a re-analysis of the deposited data

Results flagged for a closer look

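The change after IH differed between tissues for 5 of the 15 gene and tissue-pair combinations tested with a treatment by tissue term in limma (BH adjusted p of at most 0.05). Liver minus kidney, the differences were -0.92 for *Gys2*, -0.57 for *Pcx* and -0.59 for *Pygl* on the log2 scale. In kidney the 3 genes were at 0.08, 0.03 and 0.11 and in liver at -0.83, -0.54 and -0.48. Heart minus muscle, they were 0.35 for *Gys1* and 0.34 for *Pygm*, with heart at 0.32 and 0.17 and muscle at -0.03 and -0.17. Of all genes, 30.3% and 35.4% differed in the same tests.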

How the results depend on the processing

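Of the 24 pairs of same-numbered replicates per tissue, 5 to 16 correlated above 0.1, most in liver (16, median r 0.22), and in no tissue did all of them. The main fits took no pairing from the replicate number. In liver, 3640 of 11334 genes passed the adjusted p after IH with a replicate block, instead of 2748. Each share in parentheses below is that of all tested genes, summed over tissues, called under the same setting. With the replicate block, 4 pairs were called after IH (4.28%) instead of 2 (4.26%), 14 rhythms in normoxia (10.9%) instead of 9 (6.97%) and 8 after IH (5.07%) instead of 7 (3.43%), and the counts of differing curves (0) and of tissue differences (5, 35.0% against 33.0%) did not move. For IH, the TPM as deposited gave 5 calls (5.66%), replicates 1, 2 and 3 alone gave 7 (8.94%), 5 (7.33%) and 0 (3.31%), leaving out each replicate in turn gave 0 to 11 (2.88% to 9.15%), leaving out 4 libraries gave 4 (4.64%), and the adipocyte marker term gave 1 (4.18%). Rhythms in normoxia numbered 5 with time as a factor (1.87%). Rhythms after IH numbered 3 with a cosine on TPM (1.95%), 3 by the rank test (1.91%), 3 with time as a factor (0.922%) and 2 to 6 without each replicate (0.706% to 1.69%). Tissue differences numbered 0 to 6 without each replicate (15.8% to 37.6%). Differing curves stayed at 0 under every alternative run. In lung *Mdh1* turned to 0.15 when the count of detected genes entered the model. Of 781 alternative values of changes that were not called, 84 had the opposite sign. The cause of these shifts was not tested. Read depth is unknown here, so the precision of low values could not be given.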
